A study of Mus musculus with 12 samples.

Results

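The genes described here copy DNA and divide the cell. They are 49 genes taken by symbol from a list, of 25904 genes in the deposited table: 20 that act in DNA replication, 25 that act in mitosis, and 4 regulators of the G1 phase that precedes replication. They were measured by RNA sequencing of sorted C57BL/6 mouse cells in 12 libraries, 3 in each of 4 groups, and every library pooled 1 to 5 mice. WT microglia came from Tgfbr2fl/fl mice and KO microglia from Cx3cr1CreER/+Tgfbr2fl/fl mice, so only the KO mice carried the tamoxifen-inducible Cre at 1 allele of Cx3cr1, a gene of microglia and other myeloid cells. All mice received 3 daily injections of 5 mg tamoxifen, and brain and spinal cord were taken for sorting 18 to 22 days later. WT and KO macrophages were the cells that repopulated the central nervous system of irradiated Cx3cr1CreER/+R26DTA/+ recipients after a transplant of Tgfbr2fl/fl or Cx3cr1CreER/+Tgfbr2fl/fl bone marrow. In these recipients tamoxifen, given 6 weeks after the transplant, removed the host microglia by diphtheria toxin, and irradiation, transplant and depletion were common to both macrophage groups. Live Ly6C- CD11b+ cells were sorted with low F4/80 in the WT groups and high F4/80 in the KO groups, so genotype and gate changed together and cannot be told apart. The sources used here do not give the ages of the mice.

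A cell licenses its replication origins by loading the MCM helicase with Cdc6 and Cdt1, and the helicase becomes active with Cdc45 and the GINS complex. E2F transcription factors, released from retinoblastoma proteins by cyclin D and cyclin E kinases, drive the genes of this stage. Mitotic genes rise later, towards the G2 phase, under the MuvB complex with B-Myb and FoxM1, and are held low in resting cells by the DREAM complex, which binds short promoter letters known as the cell cycle genes homology region (CHR). TGF-beta, which signals through the receptor encoded by Tgfbr2, is a textbook brake on the cell cycle in many cell types and a factor that microglia need for their mature state. Microglia in the healthy adult brain divide slowly.

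Promoter letters are shown first, because the replication and the mitotic genes differ in them. RefSeq promoters of build GRCm38.p6, each from 250 bases before to 50 bases after a start, were found for 40 of the 49 genes: 17 replication genes, 21 mitotic genes and 2 G1 regulators. They were searched on both strands for E2F letters (TTTCCCGC, TTTGGCGC, TTTCGCGC or TTTGCCGC), for the CHR letters (TTTGAA) and for the CCAAT box (CCAAT). None of these words lies inside another, although an E2F word can overlap a second E2F word on the other strand. Printed below are stretches that end just before the start, for genes that were higher in KO cells of both origins and whose stretch touches no GENCODE exon. The matched letters are in capitals, and each stretch is given 5′ to 3′ on the strand of its gene. Mcm5 (chr8:75109309-75109508, plus strand) and Mcm6 (chr1:128359706-128359905, minus strand) lie between genes, and the Uhrf1 stretch (chr17:56304113-56304312, plus strand) lies in an intron of Uhrf1 before a second RefSeq start. The 3 mitotic stretches, Mki67 (chr7:135716380-135716499, minus strand), Top2a (chr11:99024190-99024309, minus strand) and Kif11 (chr19:37376262-37376381, plus strand), lie between genes. The first 3 stretches hold 200 bases and mark E2F letters, and the other 3 hold 120 bases and mark CHR letters.
Mcm5: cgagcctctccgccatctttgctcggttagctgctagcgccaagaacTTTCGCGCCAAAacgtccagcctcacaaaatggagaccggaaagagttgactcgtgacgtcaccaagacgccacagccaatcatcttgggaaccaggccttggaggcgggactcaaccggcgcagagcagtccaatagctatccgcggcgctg
Mcm6: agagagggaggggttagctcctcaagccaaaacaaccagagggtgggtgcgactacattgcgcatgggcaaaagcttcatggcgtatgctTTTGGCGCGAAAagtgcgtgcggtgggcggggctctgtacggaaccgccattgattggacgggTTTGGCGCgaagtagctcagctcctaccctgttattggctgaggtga
Uhrf1: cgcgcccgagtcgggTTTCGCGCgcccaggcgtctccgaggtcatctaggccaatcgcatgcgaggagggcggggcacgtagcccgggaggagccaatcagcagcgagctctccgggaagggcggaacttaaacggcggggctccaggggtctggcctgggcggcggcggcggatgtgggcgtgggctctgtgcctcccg
Mki67: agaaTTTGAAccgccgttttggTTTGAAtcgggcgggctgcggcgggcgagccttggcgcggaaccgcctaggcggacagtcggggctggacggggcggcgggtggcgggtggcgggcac
Top2a: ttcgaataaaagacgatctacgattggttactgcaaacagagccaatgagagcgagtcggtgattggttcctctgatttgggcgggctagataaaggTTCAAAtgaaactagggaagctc
Kif11: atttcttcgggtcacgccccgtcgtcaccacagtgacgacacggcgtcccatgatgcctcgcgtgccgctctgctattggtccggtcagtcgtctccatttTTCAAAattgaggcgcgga

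E2F letters were present in 8 of 20 promoters of replication genes and in 1 of 22 promoters of mitotic genes (4.55%), against 2.26% of all 32851 promoters and 4.04% of 11562 promoters of tested genes. The CHR letters showed the opposite pattern, with 3 of 20 replication promoters and 17 of 22 mitotic promoters (77.3%), against 17.9% of all promoters and 12.3% of those of tested genes. The CCAAT box was in 14 of 20 replication promoters (70.0%) and 20 of 22 mitotic promoters (90.9%), against 37.4% of all. The mitotic gene with E2F letters was Cdk1, which holds CHR and CCAAT letters as well. In a wider list of 42 other replication genes, E2F letters were in 11 of 44 promoters and CHR letters in 8 (18.2%), and among 46 other mitotic genes CHR letters were in 28 of 45 promoters (62.2%) and E2F letters in 4 (8.89%). Letters in a promoter are a description and not evidence that a factor binds there.

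**Figure D1:**
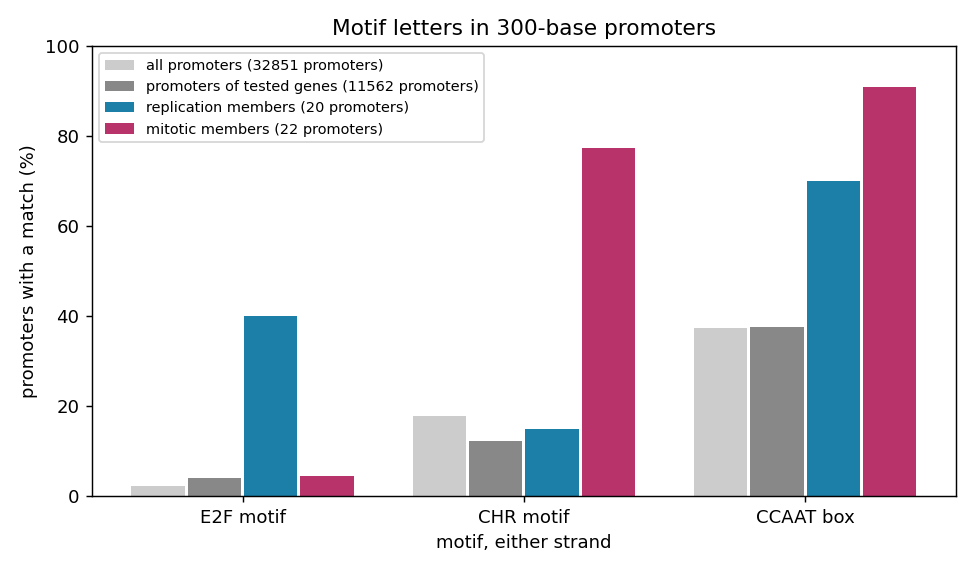
Share of promoters (%, y axis) that hold the E2F, CHR or CCAAT letters on either strand (x axis), for all promoters, promoters of tested genes, the replication genes and the mitotic genes. E2F letters are most frequent in the replication genes (8 of 20) and CHR letters in the mitotic genes (77.3%).

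The libraries held 2615404 to 6364994 reads in genes, and the levels below are normalized counts, the reads of a gene divided by the library's size factor. The targeted gene Tgfbr2 was at 3172, 3026 and 2495 in WT and 2078, 2256 and 2246 in KO microglia. In macrophages it was at 3427, 2997 and 3486 in WT and 2068, 2469 and 2167 in KO. It was lower in every KO library of both origins, with differences of -0.40 ± 0.10 (SE) and -0.56 ± 0.10 on the log2 scale (adjusted p = 0.00515 and 0.000608, limma). The files do not say which exons the deletion removes, so whole-gene reads are a weak check of the genotype. The Y-linked gene Ddx3y was at 501, 470.0 and 508 in KO microglia and was high in 1 of 3 libraries of each other group. The sex of the pools thus moved with genotype in microglia, while the macrophage groups had equal counts of libraries high in Ddx3y. Adgre1, which encodes the F4/80 of the gate, had a mean of 1410 in WT and 3860 in KO microglia and of 2600 in WT and 3790 in KO macrophages. Shared myeloid markers (8 genes) summed to 57100 to 60600 in WT and 32200 to 33900 in KO microglia, where 3 were called higher and 4 lower, and to 36600 to 39000 and 32900 to 35200 in WT and KO macrophages. The mitochondrial share of the reads in genes was 3.86% to 4.36% in WT and 5.84% to 7.68% in KO microglia, which did not overlap, and 3.18% to 5.35% and 4.61% to 6.43% in WT and KO macrophages, and its part in the results was not tested. The 9 resident microglia markers summed to 65000 to 85100 in WT microglia and 5290 to 5830 in KO microglia. Their sums in WT and KO macrophages were 19300 to 20200 and 5900 to 6750. KO macrophage replicate 1 had the fewest reads and the highest value of its group for 22 of 25 mitotic and 12 of 20 replication genes, so the macrophage counts and medians are given with and without it, and single genes where its absence ended a call or moved a called value by over 1.5 times.

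KO microglia had more transcript of nearly every mitotic gene and of most replication genes than WT microglia. All 12519 genes whose normalized count reached 10 in 3 or more libraries were tested together, and a gene was called at a Benjamini-Hochberg adjusted p under 0.05 (limma). Of the 20 replication genes, all tested, 14 rose and none fell, and of the 24 tested mitotic genes 22 rose and none fell. Over all tested genes, 21.9% were called higher and 20.6% lower in KO microglia. Since 6 replication and 14 mitotic genes passed the filter only through KO libraries, those that passed on WT libraries alone were also counted: 9 of 14 replication genes and 10 of 10 mitotic genes rose, against 19.9% of all such genes. The replication genes that passed only through KO libraries were Cdc45, Cdc6, Rrm2, Ccne1, Ccne2 and Uhrf1. The mitotic ones were Ccna2, Ccnb2, Bub1, Birc5, Aurka, Aurkb, Plk1, Kif20a, Kif23, Nusap1, Cdc20, Cdca8, Ube2c and Hmmr. Counting all genes of both classes, tested or not, the 3 KO libraries lay above the 3 WT libraries for 15 of 20 replication genes and 24 of 25 mitotic genes, against 27.4% of tested genes. These are bulk samples, in which fewer or more cells in cycle and less or more RNA per cell cannot be told apart.

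KO macrophages showed the same order of the 2 classes. In them 13 of 20 replication genes and 23 of 24 tested mitotic genes rose over WT macrophages and none fell, against 16.0% of all tested genes called higher and 15.4% lower. Among genes that passed the filter on WT libraries alone, 8 of 14 replication and 10 of 10 mitotic genes rose, against 14.5%. The libraries did not overlap and were higher in KO for 16 of 20 replication and 24 of 25 mitotic genes, against 22.4% of tested genes. Without KO macrophage replicate 1, 10 replication and 21 mitotic genes rose and none fell. The genes whose call was lost without it were Cdc6, Gins2 and Rrm2 of the replication class and Cdk1 and Cdc20 of the mitotic class.

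**Figure D2:**
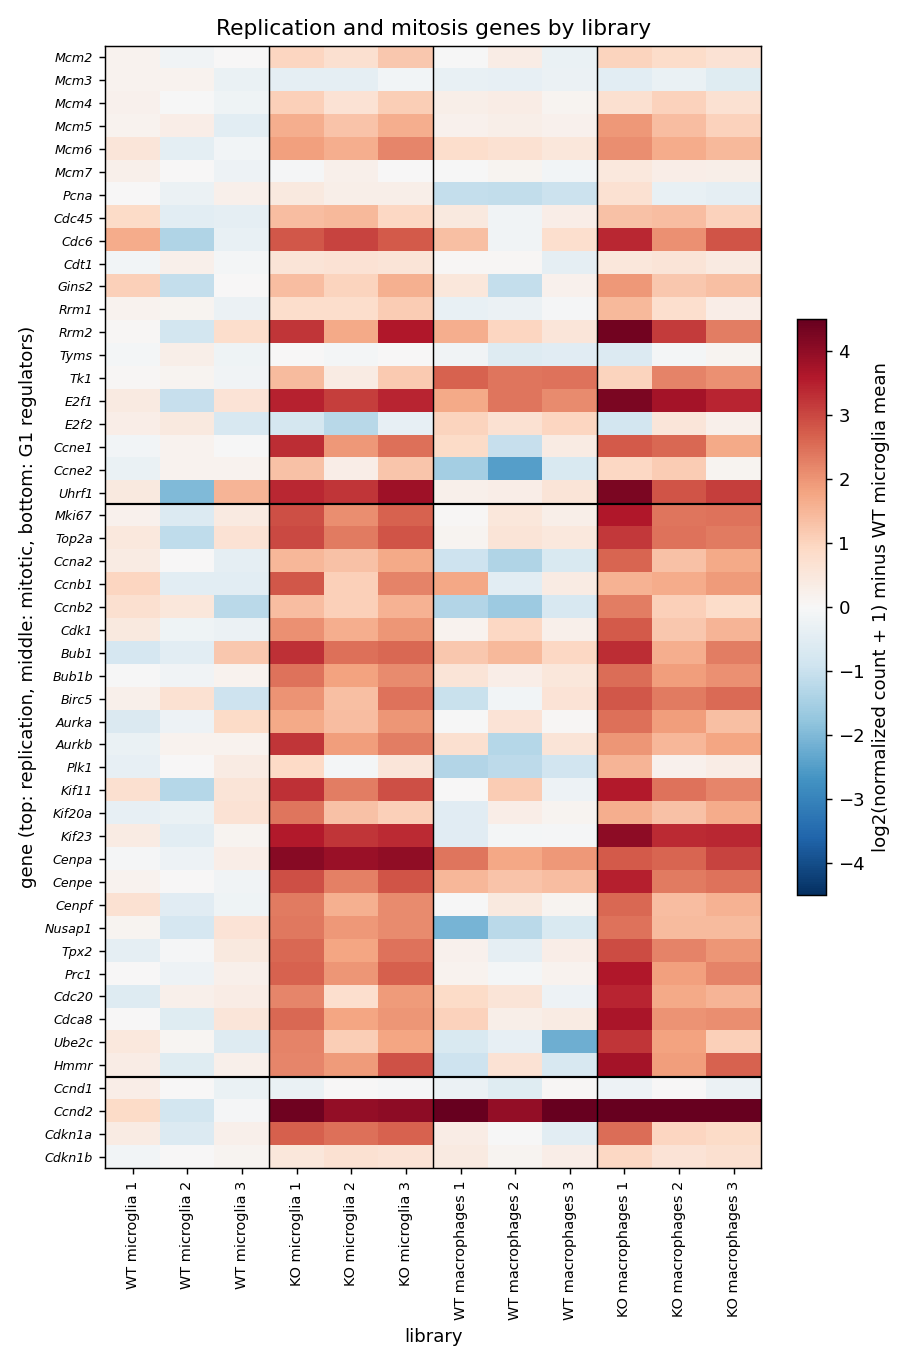
Each row is 1 of the 49 genes and each column 1 of the 12 libraries. Colour gives log2(normalized count + 1) minus the mean of the 3 WT microglia libraries, from blue (lower) to red (higher). Both KO groups are red over most mitotic rows, and the replication rows are more mixed, with Mcm3, Mcm7 and Tyms pale in all 12 libraries.

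Of the 6 subunits of the MCM helicase, 4 rose in both origins and 2 were called in neither. Mcm6 was at 74.0, 37.4 and 46.6 normalized counts in WT and 186, 158 and 236 in KO microglia, a rise of 1.89 ± 0.23 on the log2 scale (adjusted p = 6.22e-06). In macrophages it was at 88.3, 82.6 and 73.2 in WT and 217.7, 164 and 142 in KO (1.07 ± 0.23, adjusted p = 0.00233). In both origins every KO library lay above every WT library. Mcm5 rose from 29.1, 32.2 and 18.6 to 83.5, 64.9 and 82.0 in microglia (1.52 ± 0.26, adjusted p = 0.000182) and from 30.04, 31.8 and 29.6 to 104, 69.8 and 53.9 in macrophages (1.24 ± 0.26, adjusted p = 0.00194). Mcm2 went from 50.2, 39.9 and 45.5 to 88.4, 75.7 and 107 in microglia (0.97) and from 44.6, 57.2 and 36.2 to 91.2, 81.2 and 71.1 in macrophages (0.82). Mcm4 rose by 0.94 in microglia and by 0.57 in macrophages, and its macrophage call was lost without KO macrophage replicate 2 or WT macrophage replicate 1 or 3 (adjusted p = 0.0949, 0.054 and 0.0821).

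The other 2 subunits were not called in either origin. Mcm3, the most abundant of the 6 per length, was at 304, 302 and 222 in WT and 207, 208 and 252 in KO microglia, where the groups overlapped and the difference was -0.30 (95% interval -0.58 to -0.02, adjusted p = 0.0775). It was called lower in 3 of the 20 alternative analyses, limma-voom among them. In macrophages its levels of 217, 209.7 and 225 in WT and 195, 223 and 189 in KO gave -0.10 (-0.38 to 0.17). Mcm7 was at 72.3, 61.8 and 51.8 and 58.9, 71.8 and 62.7 in WT and KO microglia, with a difference of 0.06 (-0.30 to 0.43). Its KO macrophages, at 86.4, 75.9 and 73.2, lay above the WT ones at 61.0, 67.4 and 56.8, by 0.34 (-0.02 to 0.71, adjusted p = 0.141). For Mcm3 and Mcm7 the intervals in microglia end below the estimates for Mcm2, Mcm4, Mcm5 and Mcm6. Mcm7 shares exon sequence on the opposite strand with Cops6 and Ap4m1, and the strand setting of the counting is not given in the sources used here.

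The loading and activating factors were low, and Cdc6 and Gins2 were called in both origins. Cdc6, which loads the helicase, was at 7.05, 0 and 1.03 in WT and 16.7, 19.7 and 16.1 in KO microglia (2.86 ± 0.66, adjusted p = 0.00238). Its macrophage levels were 5.46, 1.27 and 3.29 in WT and 25.6, 9.60 and 17.2 in KO (2.12 ± 0.66, adjusted p = 0.0235), and without KO macrophage replicate 1 the difference was 1.80 ± 0.70 (adjusted p = 0.0687). All KO libraries were above all WT libraries in both origins, on 9 and 11 WT reads in the 2 origins. Cdt1, its loading partner, was at 20.3, 25.8 and 20.7 against 33.4, 35.4 and 33.8 in microglia (0.61 ± 0.23, adjusted p = 0.0485), and in macrophages differed by 0.60 (95% interval 0.10 to 1.10, adjusted p = 0.0639). Cdc45 was also called in microglia (1.26 ± 0.41, adjusted p = 0.0207) and not in macrophages (1.05 ± 0.41, adjusted p = 0.0632), although no KO macrophage library overlapped a WT one for either gene. Gins2, a GINS subunit, was called in both (adjusted p = 0.0477 and 0.0242), with overlapping microglia libraries, and Gse1 on the opposite strand shares up to 2758 bases of exon with it. The microglia calls of Cdc45, Cdt1 and Gins2 lay near the threshold and were lost in 5, 14 and 11 of the 19 alternative analyses that tested them. Beside KO macrophage replicate 1, the macrophage call of Cdc6 was lost without WT macrophage replicate 2 (1.71, adjusted p = 0.0976) or 3 (2.17, adjusted p = 0.0507), and that of Gins2 without WT macrophage replicate 2 (1.15, adjusted p = 0.115).

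Pcna, the sliding clamp that holds DNA polymerase on the template, was called in macrophages and not in microglia. WT microglia had 103, 85.0 and 120.1 and KO microglia 138, 123 and 123, which did not overlap but differed only by 0.33 ± 0.23 (95% interval -0.17 to 0.82, adjusted p = 0.287). WT macrophages had 47.3, 47.0 and 51.9 and KO macrophages 163, 81.2 and 76.8, a rise of 1.03 ± 0.23 (adjusted p = 0.00347) that was 0.69 ± 0.16 without KO macrophage replicate 1 (adjusted p = 0.00455). The WT macrophages were the low group here, below every WT microglia library. The difference between the 2 KO effects was not called (0.71 ± 0.33, adjusted p = 0.133).

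Among the enzymes that make deoxynucleotides, the 2 subunits of ribonucleotide reductase rose in both origins, and the thymidylate enzymes Tyms and Tk1 did not. Rrm1, the large subunit, was at 81.1, 79.9 and 61.1 in WT and 129, 128 and 162 in KO microglia (0.91 ± 0.23, adjusted p = 0.00507), and at 58.3, 61.0 and 70.0 and 203, 124 and 91.2 in WT and KO macrophages (1.06 ± 0.23, adjusted p = 0.00283). Rrm2, the small subunit made in S phase, was at 0.881, 0 and 2.07 in WT and 15.7, 4.92 and 20.9 in KO microglia, on 3 and 47 reads, a ratio of 13.7 (95% counting interval 4.42 to 69.0). In macrophages Rrm2 was at 4.55, 2.54 and 1.65 in WT and 35.2, 14.8 and 7.90 in KO (2.21 ± 0.64, adjusted p = 0.017, and 1.67 ± 0.65 with adjusted p = 0.0687 without KO macrophage replicate 1). The KO libraries were higher throughout, and the macrophage call was also lost without WT macrophage replicate 3 (adjusted p = 0.0639) and with limma-voom (adjusted p = 0.0539). Tyms, thymidylate synthase, was at 37.9, 47.7 and 35.2 and 40.3, 37.4 and 40.2 in WT and KO microglia (-0.02, interval -0.53 to 0.49) and differed by 0.22 (-0.29 to 0.73) in macrophages.

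Tk1, thymidine kinase, had a pattern of its own. It was lowest in WT microglia, at 6.17, 6.44 and 5.17, and higher in KO microglia, at 17.7, 7.87 and 14.5 (0.99 ± 0.37, adjusted p = 0.0447). WT macrophages were highest, at 42.8, 35.6 and 36.2, above the KO macrophages at 12.8, 31.4 and 28.0, a difference of -0.73 ± 0.37 that was not called (adjusted p = 0.15). In KO macrophages replicate 1 was the low library, unlike for most genes here. The microglia call was lost in 14 of the 19 alternative analyses that tested it, with an adjusted p of 0.0504 to 0.173. Afmid on the opposite strand shares up to 83 bases of exon with Tk1.

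The S-phase regulators E2f1, Ccne1 and Uhrf1 had some of the highest folds of the replication class. Ccne1 and Uhrf1 passed the filter on low values only through KO libraries. Among replication genes that passed on WT libraries alone, E2f1 had the highest estimates, 3.33 in microglia and 1.73 in macrophages. E2f1, an activating E2F, was at 8.81, 2.58 and 10.3 in WT and 79.5, 62.9 and 78.0 in KO microglia (3.33 ± 0.37, adjusted p = 2.79e-06). WT macrophages had 22.8, 38.1 and 31.3 and KO macrophages 138, 97.7 and 78.3 (1.73 ± 0.37, adjusted p = 0.00262). The groups were ordered from WT microglia to WT macrophages to the 2 KO groups, which overlapped. Uhrf1, which brings the maintenance DNA methyltransferase to newly copied DNA, was at 4.41, 0 and 10.3 in WT and 40.3, 35.4 and 53.9 in KO microglia (3.46 ± 0.66, adjusted p = 0.000524), and at 3.64, 3.81 and 4.94 and 73.6, 27.1 and 33.0 in WT and KO macrophages (3.02 ± 0.66, adjusted p = 0.00276).

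Ccne1, a cyclin E, had 3 reads in all WT microglia and 40 in all KO microglia, a ratio of 11.7 (counting interval 3.73 to 59.1). In macrophages its levels were 2.73, 0 and 1.65 in WT and 12.8, 11.3 and 5.75 in KO (2.29 ± 0.58, adjusted p = 0.00725). Ccne2, the other cyclin E, was called in macrophages (2.30 ± 0.54, adjusted p = 0.00434) and not in microglia (0.95 ± 0.54, adjusted p = 0.174), and the difference between these effects was not called (adjusted p = 0.214). It shares up to 474 bases of exon with Ints8 on the opposite strand. E2f2 had estimates below 0 in both origins. Its microglia levels were 22.0, 24.5 and 10.3 in WT and 9.82, 6.88 and 13.7 in KO. Its macrophage levels were 36.4, 29.2 and 35.4 in WT and 9.60, 26.2 and 20.8 in KO. Its differences of -0.80 ± 0.41 and -0.90 ± 0.41 were not called (adjusted p = 0.128 and 0.104), although every KO macrophage library lay below every WT one.

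**Figure D3:**
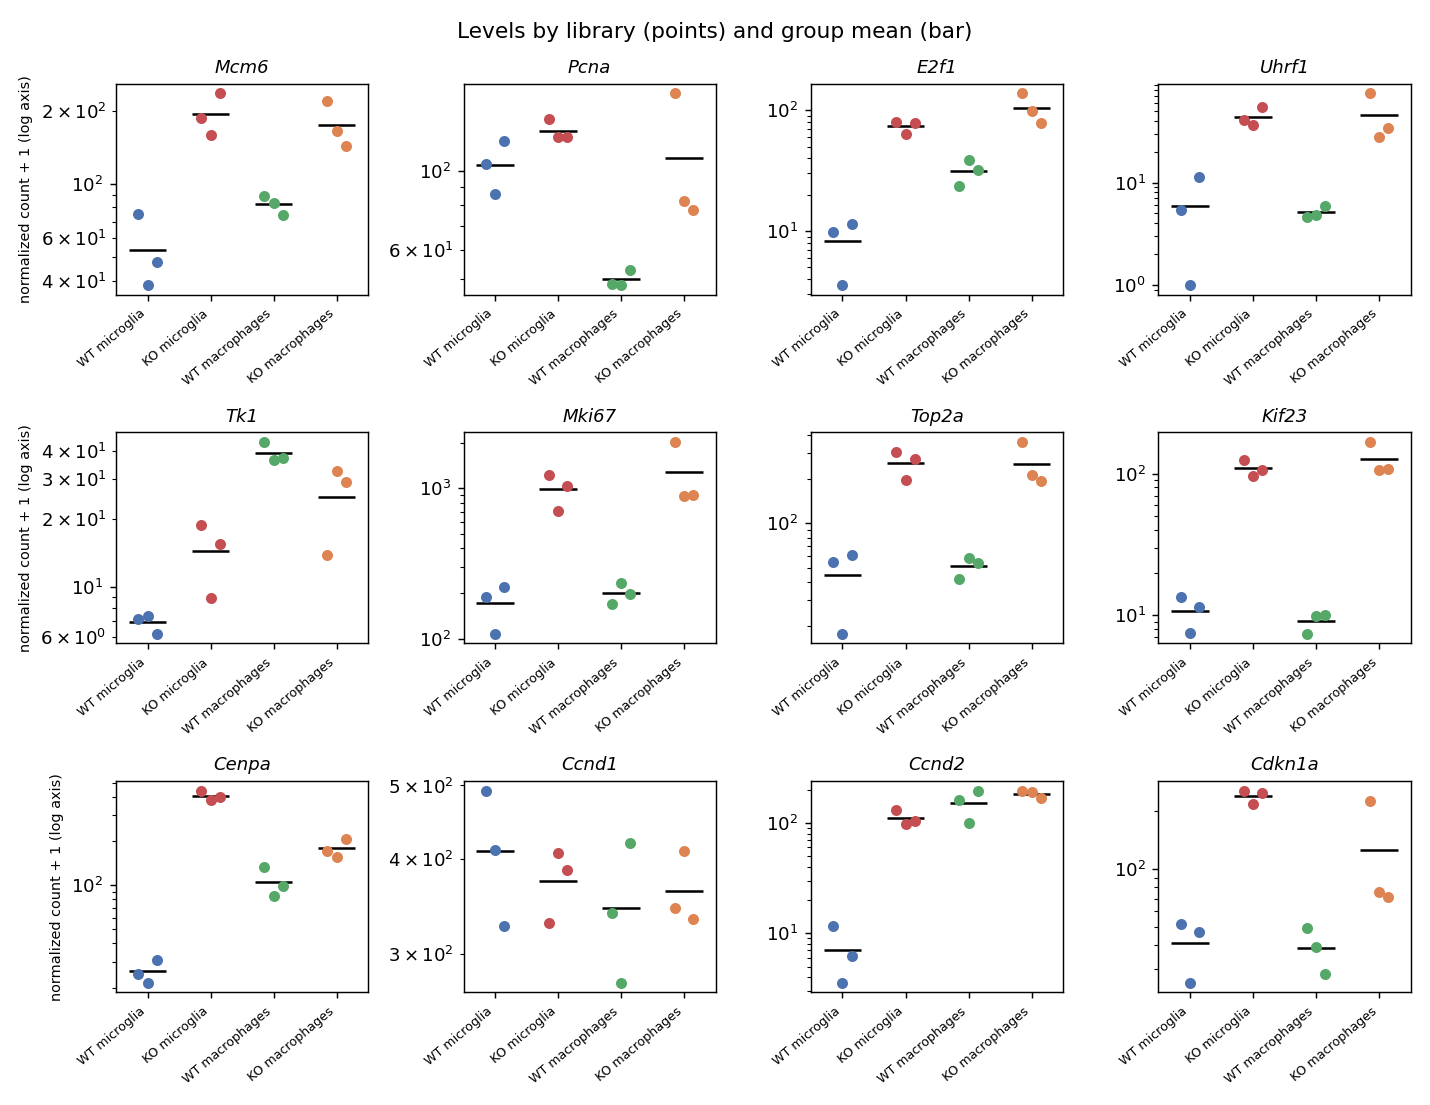
Normalized count + 1 (log y axis, its range set for each gene) of 12 genes in the 4 groups. Each point is a library and each bar the group mean. Mki67, Top2a, Kif23, E2f1 and Uhrf1 are higher in every KO library of both origins, while Ccnd1 overlaps throughout. Tk1 is highest in WT macrophages, and Ccnd2 is low only in WT microglia.

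Mki67, which coats mitotic chromosomes and is the usual marker of cycling cells, was at 189, 107 and 219 in WT and 1224, 705 and 1029 in KO microglia (2.54 ± 0.31, adjusted p = 5.96e-06). In macrophages it was at 170.2, 233 and 197 in WT and 2026, 886 and 904 in KO (2.56 ± 0.31, adjusted p = 1.39e-05). KO macrophage replicate 1 held more than the other KO macrophage libraries, and without it the rise was 2.17 ± 0.24 (adjusted p = 3.81e-06). Top2a, the topoisomerase that untangles replicated chromosomes, was at 53.8, 16.8 and 60.0 in WT and 302, 197 and 274 in KO microglia (2.71 ± 0.37, adjusted p = 2.25e-05), and at 41.0, 57.2 and 52.7 and 355, 211 and 194 in WT and KO macrophages (2.27 ± 0.37, adjusted p = 0.000262). Neither gene overlapped between genotypes in either origin. Per kilobase of exon, Mki67 was the most abundant of the 49 genes in both KO groups, at 98.0 and 126 normalized counts, and ranked below Ccnd1, Mcm3, Cdkn1b and Pcna in both WT groups, at 17.1 and 19.9.

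The mitotic kinase Cdk1 and its cyclins were present at low levels. Cdk1 was at 12.3, 7.73 and 7.25 in WT and 40.3, 29.5 and 37.8 in KO microglia (1.89 ± 0.39, adjusted p = 0.00103), and at 10.0, 17.8 and 10.7 and 65.6, 21.8 and 27.3 in WT and KO macrophages (1.38 ± 0.39, adjusted p = 0.0141). Without KO macrophage replicate 1 the macrophage difference was 0.92 ± 0.35 (adjusted p = 0.0601), and without WT macrophage replicate 1 it was 1.24 (adjusted p = 0.0583). With limma on only the groups compared the macrophage call of Cdk1 was lost as well (adjusted p = 0.058). Ccna2, cyclin A, rose in both origins (1.501 ± 0.36 and 2.87 ± 0.36, adjusted p = 0.00338 and 2.47e-05). Ccnb2, cyclin B2, was called in macrophages (2.63 ± 0.54, adjusted p = 0.00177) and just missed the threshold in microglia (1.34 ± 0.54, adjusted p = 0.0574), where no libraries overlapped. Ccnb1, cyclin B1, was too low to test: it had 2 reads in all WT and 18 in all KO microglia, a ratio of 7.90 (counting interval 1.89 to 70.2), and 5 and 12 reads in WT and KO macrophages. The table also lists a pseudogene named for Ccnb2, at a mean of 1.67 normalized counts, and a Ccnb1 pseudogene is annotated, so reads of these cyclins may be divided.

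Genes of the spindle checkpoint and of the anaphase-promoting complex rose in most cases. Bub1b, a checkpoint kinase-like protein, was at 18.5, 16.8 and 20.7 in WT and 105, 67.8 and 85.2 in KO microglia (2.13 ± 0.23, adjusted p = 1.63e-06) and at 28.2, 22.9 and 27.2 and 112, 70.7 and 81.2 in macrophages (1.69 ± 0.23, adjusted p = 4.5e-05). Its libraries did not overlap, and its spread was small beside these differences. Bub1, a checkpoint kinase, rose in microglia (2.78 ± 0.54, adjusted p = 0.000642) and in macrophages differed by 1.21 ± 0.54 (adjusted p = 0.103), from 6.37, 7.62 and 4.94 in WT to 30.4, 8.73 and 14.4 in KO. Cdc20, an activator of the complex, and Ube2c, its ubiquitin-conjugating enzyme, rose in both origins, on 9 and 11 reads in WT microglia. The call of Cdc20 in macrophages was lost without KO macrophage replicate 1 (1.21 ± 0.53, adjusted p = 0.104) or WT macrophage replicate 3 (adjusted p = 0.0928). It was also lost with limma on only the groups compared (adjusted p = 0.0548) and with limma-voom (adjusted p = 0.0677). In microglia the calls of Cdc20 and Ube2c were each lost in 6 of the 19 alternative analyses that tested them, without KO microglia replicate 1 at 1.33 (adjusted p = 0.126) and 1.44 (adjusted p = 0.132).

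The chromosomal passenger complex, which corrects the attachment of chromosomes to the spindle, rose in all 3 listed parts. Aurkb, its kinase, was at 3.52, 5.15 and 5.17 in WT and 51.1, 19.7 and 26.5 in KO microglia (2.48 ± 0.51, adjusted p = 0.000989), and at 8.19, 1.27 and 7.41 and 20.8, 14.8 and 17.9 in macrophages (1.74 ± 0.51, adjusted p = 0.0173, and 1.09 with adjusted p = 0.0747 without WT macrophage replicate 2). The macrophage call of Aurkb was also lost with limma on only the groups compared (adjusted p = 0.0583) and with limma-voom (adjusted p = 0.055). Birc5, survivin, was at 3.52, 5.15 and 1.03 in WT and 14.7, 8.85 and 20.1 in KO microglia (1.95 ± 0.52, adjusted p = 0.0069) and rose by 2.72 in macrophages. Cdca8, borealin, rose by 2.12 and 2.03. All 3 parts passed the filter on low values only through KO libraries. Aurka, the kinase of the spindle poles, and Tpx2, which activates it, rose in both origins as well, by 1.70 and 2.26 in microglia and by 1.70 and 2.37 in macrophages. Plk1, another mitotic kinase, was the exception in microglia. It was at 9.69, 12.9 and 16.6 in WT and 24.6, 11.8 and 19.3 in KO microglia, which overlapped (0.45 ± 0.41, 95% interval -0.42 to 1.32, adjusted p = 0.413). In macrophages it rose from 4.55, 5.08 and 6.58 to 38.4, 14.8 and 16.5 (1.81 ± 0.41, adjusted p = 0.00347). Aurka and Plk1 also passed the filter only through KO libraries.

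Motor and bundling proteins of the spindle were among the genes with the highest folds. Kif23, a motor of the central spindle needed for cytokinesis, was at 12.3, 6.44 and 10.3 in WT and 124, 95.4 and 105 in KO microglia (3.38 ± 0.28, adjusted p = 7.42e-08). It was at 6.37, 8.90 and 9.05 in WT and 166, 105 and 108 in KO macrophages (3.79 ± 0.28, adjusted p = 8.83e-08, and 3.57 ± 0.29 without KO macrophage replicate 1). Kif23 passed the filter on low values only through KO libraries, as did Hmmr, Kif20a and Nusap1, which are described below. Kif11, which pushes the spindle poles apart, was at 18.5, 3.87 and 16.6 in WT and 114, 57.0 and 88.4 in KO microglia (2.83 ± 0.52, adjusted p = 0.000404) and rose by 2.42 ± 0.52 in macrophages. Hmmr, a spindle-associated hyaluronan receptor, was at 2.73, 10.2 and 3.29 in WT and 94.4, 25.3 and 43.8 in KO macrophages (3.10 ± 0.51, adjusted p = 0.000284, and 2.61 ± 0.49 without KO macrophage replicate 1). Kif20a, Prc1 and Nusap1, which act on the central spindle or on microtubule bundles, rose in both origins, by 1.60 to 2.46 in microglia and 1.56 to 3.09 in macrophages. Kif20a shares up to 977 bases of exon with Cdc23 and Prc1 up to 670 with Rccd1, in both cases on the opposite strand.

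Of the 3 centromere and kinetochore genes, Cenpa and Cenpe responded differently in the 2 origins. Cenpa, the histone H3 variant that marks centromeres, was at 23.8, 20.6 and 30.01 in WT and 440.0, 378 and 402 in KO microglia (3.995 ± 0.18, adjusted p = 8.4e-11), the largest estimate of the mitotic class there. WT macrophages already held 132.9, 83.9 and 97.9, and KO macrophages held 171, 155 and 207 (0.77 ± 0.18, adjusted p = 0.00456). The 4 groups did not overlap at all: WT microglia were lowest, then WT macrophages, then KO macrophages, and KO microglia were highest. Cenpe, a kinetochore motor, was at 29.1, 25.8 and 22.8 and 199, 129 and 189 in WT and KO microglia (2.67 ± 0.26, adjusted p = 5.53e-07) and at 73.7, 64.8 and 69.1 and 302, 134 and 143 in WT and KO macrophages (1.37 ± 0.26, adjusted p = 0.000972). Cenpf, a kinetochore protein, rose in both, by 2.04 ± 0.32 and 1.65 ± 0.32, with an interaction of -0.38 (95% interval -1.36 to 0.59).

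Of the 4 G1 regulators, Cdkn1a and Cdkn1b rose in both origins, Ccnd2 rose in microglia and Ccnd1 was called in neither. Ccnd1, cyclin D1 and the most abundant per length of the 49 genes in both WT groups, was at 491, 411 and 326 in WT and 329, 407 and 386 in KO microglia. Its macrophage levels were 339, 274 and 419 in WT and 344, 409 and 332 in KO. All 4 groups overlapped, and the genotype differences were -0.12 (95% interval -0.46 to 0.23) and 0.09 (-0.26 to 0.43). Ccnd2, cyclin D2, was almost missing from WT microglia, at 10.6, 2.58 and 5.17, and was at 129.6, 97.3 and 103 in KO microglia (4.12 ± 0.34, adjusted p = 7.76e-08). It was at 159, 97.9 and 193 in WT and 194, 188 and 167 in KO macrophages, which overlapped (0.33 ± 0.34, adjusted p = 0.482). WT microglia were thus the group apart for Ccnd2.

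Both listed inhibitors of cyclin-dependent kinases were higher in KO cells of both origins. Cdkn1a, p21, was at 50.2, 24.5 and 45.5 in WT and 254, 216 and 247 in KO microglia (2.61 ± 0.37, adjusted p = 3.75e-05). In macrophages it was at 48.2, 38.1 and 27.2 in WT and 225.7, 75.04 and 70.4 in KO (1.501 ± 0.37, adjusted p = 0.00676). KO macrophage replicate 1 alone reached the level of KO microglia, and without it the rise was 0.96 ± 0.27 (adjusted p = 0.0133). Cdkn1b, p27, was at 230.0, 258 and 273 in WT and 358, 405 and 387 in KO microglia (0.60 ± 0.11, adjusted p = 0.00032), and at 334, 276 and 311 and 482, 391 and 416 in macrophages (0.48 ± 0.11, adjusted p = 0.00315). Its rise was small, with no overlap in either origin.

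The mitotic genes differed more between genotypes than the replication genes did. In microglia the median log2 difference was 0.98 over the replication genes and 2.14 over the 24 tested mitotic genes, a gap of -1.16, beside -0.01 over all tested genes. The macrophage medians were 1.05 and 2.15, a gap of -1.10, beside 0.00 over all tested genes, and without KO macrophage replicate 1 they were 0.826 and 1.79. On the members that passed the filter on WT libraries alone, the medians were 0.93 and 2.50 in microglia, and 0.71 and 1.98 in macrophages. These medians describe lists of unequal size and level and carry no test. The gap depended on the constant added before taking logs: with 8 in place of 1 it was -0.68 in microglia and -0.60 in macrophages.

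The same order held library by library. Against the WT microglia mean, the median mitotic gene was 1.80 to 2.43 higher in the KO microglia libraries and 1.85 to 2.87 higher in the KO macrophage libraries, and the median replication gene 0.76 to 1.34 and 0.85 to 1.18 higher. In all 6 KO libraries the mitotic median was above the replication median. The WT libraries lay between -0.23 and 0.29 for both classes. On the linear scale, the summed mitotic counts were 0.410 to 0.762 of the summed replication counts in WT microglia and 0.755 to 0.835 in WT macrophages, against 1.81 to 2.51 in KO microglia and 1.67 to 2.83 in KO macrophages. Mki67 made up 32.0% to 39.6% of the mitotic sum in WT microglia and 33.1% to 36.6% in KO microglia, and Mcm3 made up 30.4% to 37.1% and 15.5% to 17.7% of the replication sum. Without these 2 genes the ratio was 0.443 to 0.663 in WT and 1.47 to 1.88 in KO microglia, and 0.737 to 0.759 in WT and 1.18 to 1.77 in KO macrophages.

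**Figure D4:**
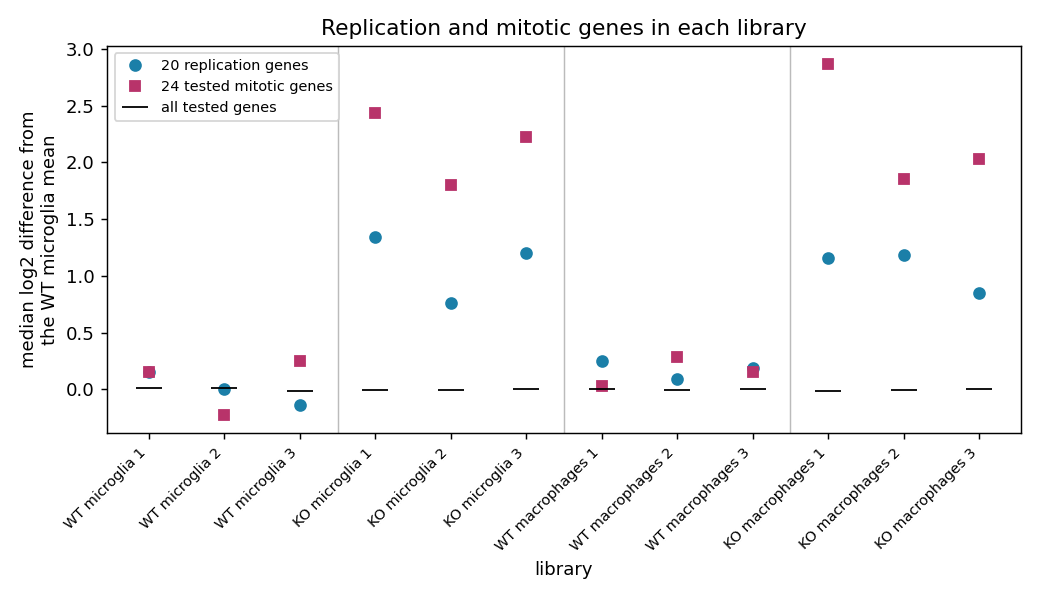
Median log2 difference from the WT microglia mean (y axis) in each of the 12 libraries (x axis), for the 20 replication genes, the 24 tested mitotic genes and all tested genes. In all 6 KO libraries the mitotic median (1.80 to 2.87) lies above the replication median (0.76 to 1.34), and all tested genes stay near 0.

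Within the replication class, genes rose both with and without the motif letters. Of 8 replication genes with E2F letters, 5 rose in microglia and 4 in macrophages, and of 9 with a promoter but no such letters, 7 and 6 rose. Mcm3, Mcm7 and E2f2 hold E2F letters and were not called in either origin, while E2f1, Rrm2 and Ccne1 hold none in these windows and rose. Of 16 tested mitotic genes with CHR letters, 14 rose in microglia and 16 in macrophages, and of 4 without them, Bub1, Birc5, Cenpe and Nusap1, 4 and 3 rose. No test was made of these counts, beside which 21.9% and 16.0% of all tested genes were called higher in microglia and macrophages. Cdc6 and Uhrf1 with E2F letters, and Cdc45, Rrm2 and Ccne1 without them, passed the filter only through KO libraries. So did Ccnb2, Aurka, Plk1, Kif23, Cdc20, Cdca8, Ube2c and Hmmr with CHR letters, and Bub1, Birc5 and Nusap1 without them.

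Between the WT groups, few of the genes differed. Macrophages had more Mcm6, Tk1 and E2f1 and less Pcna and Ccne2 of the replication genes, and more Cenpa and Cenpe and less Ccna2, Plk1 and Nusap1 of the mitotic genes. This is 3 higher and 2 lower of 20, and 2 higher and 3 lower of 24, against 19.2% higher and 20.2% lower over all tested genes. The largest differences were in Tk1 (2.500 ± 0.37, adjusted p = 7.13e-05), E2f1 (2.08 ± 0.37, adjusted p = 0.000396), Cenpa (2.03 ± 0.18, adjusted p = 3.41e-07) and Cenpe (1.39 ± 0.26, adjusted p = 0.000533), and in the G1 regulator Ccnd2 (4.52 ± 0.34, adjusted p = 4.77e-08). The calls of Mcm6, Ccne2, Ccna2, Plk1 and Nusap1 lay near the threshold (adjusted p = 0.0295 to 0.0407) and were lost in 6 to 12 of the 19 or 20 alternative analyses that tested them. The count of replication genes was 3 in place of 5 without WT microglia replicate 2 or without WT macrophage replicate 1 or 2. The count of mitotic genes was 3 in place of 5 when KO microglia replicate 3, or either the first or the second WT microglia library, was left out, and 2 without WT macrophage replicate 1 or 2. Mki67 differed by 0.27 (95% interval -0.38 to 0.92) and Top2a by 0.38 (-0.41 to 1.17), both within the spread of the libraries.

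KO cells of the 2 origins were closer still, in these genes as over all genes. Of 12519 tested genes, 1314 were called between the KO groups, against 4930 between the WT groups. None of the 20 replication genes was called by limma, none had an unadjusted 95% interval that excludes 0, and limma-voom on whole reads called none as well. Of 24 mitotic genes 1 was called: Cenpa was lower in KO macrophages (-1.20 ± 0.18, adjusted p = 0.000332). Over all tested genes 5.45% were higher and 5.05% lower, so the counts of both classes lay near the background. The 95% interval for Mki67 was -0.36 to 0.94, so a difference of up to that size remains possible. Without KO macrophage replicate 1, 2 replication genes were called, Pcna lower (-0.69 ± 0.16, adjusted p = 0.00882) and Tk1 higher (1.16 ± 0.34, adjusted p = 0.0345), and Cdkn1a was lower (-1.70 ± 0.27, adjusted p = 0.000291). With every library kept, Cdkn1a was also called lower by limma-voom (-1.36, adjusted p = 0.00154) and by limma with 8 added before taking logs (-1.10, adjusted p = 0.0407). Ccnd2 was called higher by limma-voom (0.75, adjusted p = 0.0109) and by limma on only the groups compared (0.74, adjusted p = 0.0137). The main fit called neither.

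The effect of the genotype itself differed between origins for 5 of the 48 tested genes. The interaction, which is the KO effect in macrophages minus that in microglia, was negative for all 5: Tk1 and E2f1 of the replication genes, Cenpa and Cenpe of the mitotic genes, and Ccnd2. Over all tested genes 13.0% had a positive and 12.9% a negative interaction, so 5 of 48 was no more than the background. Cenpa had -3.22 ± 0.26 (adjusted p = 3.14e-07) and Ccnd2 -3.78 ± 0.48 (adjusted p = 3.05e-05). For all 5 the WT macrophage libraries lay above the WT microglia libraries, and the 2 KO groups were closer to each other than the 2 WT groups were. The interaction is also the origin difference in KO cells minus that in WT cells, so this order describes the same result and adds no support. The calls of Cenpa and Ccnd2 held in all 19 alternative analyses of the interaction, and those of E2f1 and Tk1 were lost in 11 of 19 and 5 of 18. That of Cenpe was lost without KO microglia replicate 1 (-1.19, adjusted p = 0.0501). Without KO macrophage replicate 1, Cdkn1a (-1.65, adjusted p = 0.00247), Mcm6 (-0.99, adjusted p = 0.0242) and Bub1 (-2.02, adjusted p = 0.0487) were called as well. Ccna2 was called with a positive interaction without WT microglia replicate 3 (1.58, adjusted p = 0.0432) or KO macrophage replicate 2 (1.655, adjusted p = 0.0326). Mki67 had an interaction of 0.02 (95% interval -0.90 to 0.94).

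**Figure D5:**
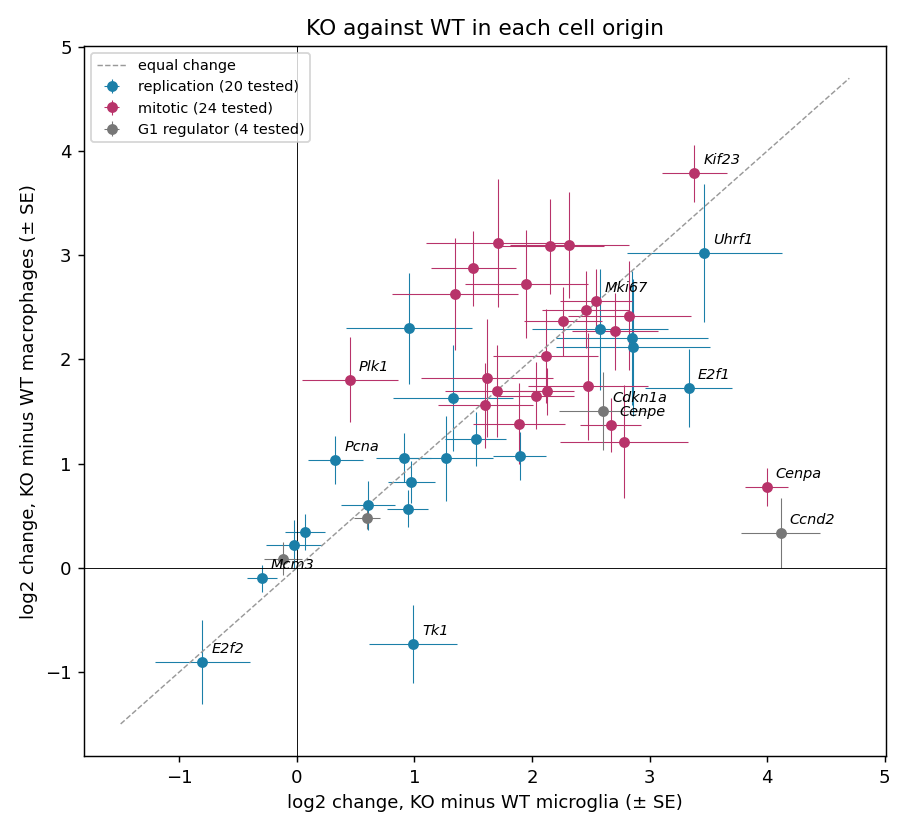
Log2 change of KO against WT in microglia (x axis) and in macrophages (y axis) for the 48 tested genes, with SE bars and a dashed line of equal change. Most mitotic genes lie up and to the right near the line, Cenpa, Ccnd2, Cenpe, E2f1 and Tk1 lie below it, and Mcm3 and E2f2 lie below 0 on both axes.

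In wider lists of the same pathways, drawn up with earlier results known, genes also rose in KO cells of both origins. Of 42 other replication genes, 40 were tested, and 22 rose in KO microglia and 14 in KO macrophages with none falling. Over all tested genes 21.9% and 16.0% were called higher in the 2 origins. Of the 35 that passed the filter on WT libraries alone, 18 and 10 rose, against 19.9% and 14.5% of all such genes, and without KO macrophage replicate 1 the macrophage count was 11 of 40. The medians of the 40 were 0.78 and 0.49. Between the WT groups, 11 of the 40 were higher in macrophages and none lower, against 19.2% and 20.2% of all tested genes. Their median interaction was -0.38, beside -0.18 for the 20 replication genes above. Of the 40, 5 had a negative and none a positive interaction, against 12.9% and 13.0% of all tested genes. Mcm10, which activates origins, was at 1.76, 6.44 and 4.14 in WT and 51.1, 40.3 and 63.5 in KO microglia (3.45 ± 0.53, adjusted p = 7.54e-05). Clspn, a mediator of the replication checkpoint, was at 8.19, 8.90 and 15.6 in WT and 99.2, 42.8 and 40.9 in KO macrophages (2.31 ± 0.41, adjusted p = 0.000558). Pola1, the catalytic subunit of DNA polymerase alpha, was at 57.3, 45.1 and 59.0 in WT and 308, 285 and 271 in KO microglia. Its WT macrophages, at 160.2, 163 and 154, lay above all WT microglia and overlapped the KO macrophages at 152, 257 and 246, and the interaction was -1.99 ± 0.24 (adjusted p = 2.43e-05).

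Of 46 other mitotic genes, 42 were tested, and 33 rose in KO microglia and 29 in KO macrophages with none falling. This stands beside the same shares over all tested genes. Of the 23 that passed on WT libraries alone, 17 rose in each origin, and without KO macrophage replicate 1 the macrophage count was 22 of 42. The medians of the 42, 1.89 and 1.38, were again above those of the other replication genes. Between the WT groups, 11 of the 42 were higher in macrophages and 3 lower, against 19.2% and 20.2% of all tested genes. Their median interaction was -0.41, beside 0.01 for the 24 tested mitotic genes above. Of the 42, 4 had a negative and 1 a positive interaction, against 12.9% and 13.0% of all tested genes. Anln, a scaffold of the cytokinetic ring, was at 13.2, 5.15 and 8.28 in WT and 108, 63.9 and 92.4 in KO microglia (3.22 ± 0.28, adjusted p = 1.48e-07), and at 72.8, 78.8 and 80.7 and 158, 118 and 112 in WT and KO macrophages, with an interaction of -2.51 ± 0.39 (adjusted p = 0.000245). Aspm, a spindle pole protein, was at 23.7, 19.1 and 28.0 in WT and 190.5, 82.0 and 81.2 in KO macrophages (2.17 ± 0.30, adjusted p = 6.24e-05). Ncaph, a condensin subunit, went against the list in the WT comparison, with 124, 108 and 94.2 in WT microglia and 23.7, 48.3 and 25.5 in WT macrophages (-1.78 ± 0.25, adjusted p = 3.93e-05). Smc4, another condensin subunit, rose by 2.11 ± 0.12 in KO microglia and by 0.57 ± 0.12 in KO macrophages.

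The lists of regulators were mixed. Of 12 tested other cyclins, kinases and inhibitors, 4 rose and 2 fell in KO microglia, and 4 rose and 2 fell in KO macrophages, where the counts were 3 and 3 without KO macrophage replicate 1. Over all tested genes 21.9% were called higher and 20.6% lower in microglia, and 16.0% and 15.4% in macrophages, so the shares that fell were near the background. Skp2, which marks p27 for degradation, rose in both origins, from 34.4, 39.9 and 42.4 to 176, 239.9 and 220.2 in microglia (2.41 ± 0.17, adjusted p = 9.92e-09) and by 1.45 ± 0.17 in macrophages. Ccng2, a cyclin linked to cell cycle arrest, fell from 549, 613 and 549.6 to 183, 128 and 145 in microglia (-1.92 ± 0.12, adjusted p = 2.8e-09), and Ccnd3, cyclin D3, fell in macrophages (-1.20 ± 0.29, adjusted p = 0.00616). Of 15 other E2F and retinoblastoma family genes, 5 rose and 2 fell in KO microglia, and 1 rose and 1 fell in KO macrophages, or 1 and 2 without KO macrophage replicate 1. E2f3 fell from 344, 305 and 222 to 77.6, 83.6 and 82.8 in microglia (-1.80 ± 0.19, adjusted p = 1.11e-06), while the retinoblastoma gene Rb1 rose (1.13 ± 0.09, adjusted p = 7.54e-08). Tfdp2, a partner of E2F proteins, fell in macrophages (-0.82 ± 0.17, adjusted p = 0.00176). Between the KO groups, macrophages had more Lin9, a MuvB subunit (0.65 ± 0.18, adjusted p = 0.0279), and less Rbl2, the retinoblastoma relative p130 (-0.45 ± 0.12, adjusted p = 0.025).

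Since Cdkn1a is a target of p53, other targets were counted beside it. Of 16 tested p53 target genes, 6 rose and none fell in each origin, beside 21.9% higher and 20.6% lower over all tested genes in microglia and 16.0% and 15.4% in macrophages. Their medians were 0.29 in microglia and 0.42 in macrophages, and without KO macrophage replicate 1 the macrophage median was 0.198, with 5 called higher. Plk2, a stress-responsive kinase, was at 67.0, 47.7 and 61.1 in WT and 526, 422 and 412 in KO microglia (2.94 ± 0.34, adjusted p = 4.24e-06), and at 37.3, 25.4 and 32.9 and 619, 185 and 188 in WT and KO macrophages (3.10 ± 0.34, adjusted p = 6.48e-06). KO macrophage replicate 1 was the high library for Plk2 as it was for Cdkn1a. Pmaip1, which promotes apoptosis, rose by 2.73 ± 0.33 in microglia and 1.32 ± 0.33 in macrophages. Btg2, an antiproliferative gene, was lower in WT macrophages than in WT microglia (-0.90 ± 0.21, adjusted p = 0.00263).

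Markers of other cells moved with the genotype too, and their part in these results was not tested. Neuronal markers (7 genes) summed to 15.5 to 21.9 in WT and 100.5 to 134 in KO microglia, and to 30.04 to 55.9 and 66.8 to 123 in WT and KO macrophages. Astrocyte markers (6 genes) summed to 46.7 to 112 in WT and 197 to 273 in KO microglia, and to 41.9 to 66.1 and 139 to 178 in macrophages. Of the oligodendrocyte lineage list, 7 genes summed to 152.5 to 172.6 in WT and 219 to 237 in KO microglia, and to 164 to 191 and 133.5 to 232 in macrophages, mostly Mbp. Pdgfra and Cspg4, markers of oligodendrocyte precursors, averaged 0.578 to 5.09 in every group. Of the 7 monocyte genes, 5 were in the table and summed to 22.8 to 46.4 in WT and no more than 151 in KO microglia, and to 156 to 209 and 162 to 342 in macrophages, nearly all from Ccr2, while Ly6c2 was at 0 in all but the KO macrophages, where it averaged 0.821. Progenitor genes (6 of 9 in the table) summed to 788 to 985 in WT and 102 to 128 in KO microglia, and to no more than 197 and 51.2 to 85.5 in WT and KO macrophages, from Cd34 and Meis1, with Kit at 0.239 to 2.83. T and NK cell genes (8) summed to 1.76 to 5.15 in WT and 21.6 to 28.1 in KO microglia, and to 3.81 to 10.9 and 48.0 to 116 in macrophages, mostly Cd4, with Cd3e at 0.345 to 2.65 and Trac at 0 outside KO macrophages. Neutrophil genes (5 of 8 in the table) summed to no more than 24.55 in any library. Of the B cell genes, Ighm was at 1202, 1134 and 1114 in WT and 976, 981 and 954 in KO microglia. Its WT macrophage levels were 834, 891 and 859, its KO macrophage levels were 719, 789.7 and 600.4, and it was called lower in KO cells of both origins. Ms4a1 averaged 1.19 in KO microglia and was at 0 in the other groups. Erythroid genes (7) overlapped between genotypes in both origins. Vessel genes (5 in the table) summed to 124 to 237 in WT and 36.3 to 41.3 in KO microglia, and to 55.5 to 65.0 and 88.0 to 147 in macrophages.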

How the data were processed

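RNA of 12 sorted pools was made into libraries with a strand-preserving SMARTer Pico kit for total RNA, per the labels' protocols. The submitters' processing notes name bcl2fastq, CASAVA, STAR and GRCm38. The gene counter, its strand setting, the annotation and the normalizing tool are not stated in these sources. The deposited values are log2(gene count divided by a size factor of the library + 1), as the authors' values themselves show: all 310848 of them were whole reads within 0.01 reads after the size factors were undone. Low genes are therefore coarse, with 1 read worth 0.718 to 1.60 normalized counts.

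All 12519 genes with a normalized count of 10 or more in 3 or more of the 12 libraries were fitted together with limma 3.58.1 in R 4.3.3, with 4 group means, a mean-variance trend and 8 residual degrees of freedom, and p-values were Benjamini-Hochberg adjusted over all of them. The other 13385 genes were not tested. The 5 comparisons were KO against WT in microglia and in macrophages, the 2 cell origins against each other within WT and within KO, and the interaction. Because 1 is added before the logarithm, the log2 change of a low gene is smaller than its true ratio. Levels per length divide by the merged exon length of GENCODE. The procedure was tested on simulated data.

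The 49 genes, the other gene lists and the rule for named genes were chosen with earlier results of these data known. The rule names every gene that was not called, and in each class the 3 called genes with the largest change whose higher group averages 50 or more. In each other list it names the called genes with the largest rise and fall. One marker gene each of the oligodendrocyte lineage and B cell lists is not reported here.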

Additional observations from a re-analysis of the deposited data

Results flagged for a closer look

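For 5 of the 48 tested genes (over all tested genes 13.0% had a positive and 12.9% a negative interaction) the KO effect itself differed between macrophages and microglia in the limma interaction, given here as the effect in macrophages minus that in microglia on the log2 scale. Among replication genes these were Tk1 (-1.719, adjusted p = 0.0258) and E2f1 (-1.606, adjusted p = 0.0364). Without KO microglia replicate 1 neither was called, at -1.495 (adjusted p = 0.0716) for Tk1 and -1.55 (adjusted p = 0.0812) for E2f1. With the Y-linked Ddx3y as a covariate both were lost as well (adjusted p = 0.0854 and 0.142).

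The mitotic genes were Cenpa (-3.224, adjusted p = 3.14e-07) and Cenpe (-1.304, adjusted p = 0.0166), and the G1 regulator was Ccnd2 (-3.782, adjusted p = 3.05e-05). Over the 19 alternatives that gave an interaction, Cenpa ranged from -3.37 to -2.94 and Ccnd2 from -4.22 to -2.77, each called in all of them. For all 5 genes WT macrophages lay above WT microglia, a difference that enters the interaction itself and is not separate support. The gate and the summed markers of other cells moved with the groups too, and the sex of the pools set KO microglia apart. The part of gate, sex and markers in these differences was not tested.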

How the results depend on the processing

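The 14 counts and medians were recomputed under 20 alternatives (19 for the interaction), 12 of which leave out a library, and no comparison of KO with WT changed direction. The gap of the medians between the WT groups, -0.00135, ranged from -0.267 to 0.29 when a library was left out and was 0.0636 with limma-voom, and that between the KO groups, -0.173, ranged from -0.288 to 0.0974, the last without KO macrophage replicate 1, so neither has a settled sign. A minimum of 50 normalized counts in 3 libraries tests fewer genes. With it, 6 replication and 10 mitotic genes were called in KO microglia and 7 and 10 in KO macrophages. It called 3 and 2 between the WT groups and 1 replication gene in the interaction, and the gap of the medians in microglia was -1.66. Of all 8841 genes tested there, 4337 were called in KO microglia, 3376 in KO macrophages, 4198 between the WT groups and 2992 in the interaction. With 8 added before taking logs the gap was -0.68 in microglia and -0.604 in macrophages, 2 mitotic genes differed between the WT groups and 1 replication gene was called in the interaction. Without a filter these last counts were also 2 and 1. Fitting only the groups compared left 3 mitotic genes between the WT groups. The series of the title numbers as a covariate left 3 replication and 2 mitotic genes there and 1 replication gene in the interaction. Ddx3y as a covariate left 0 replication genes in the interaction. Limma-voom on whole reads, chosen after seeing the data, left 2 mitotic genes between the WT groups. Over all tested genes, the main fit called 4930 between the WT groups. This was 5033 with 8 added, 4749 without a filter, 5413 on only the groups compared, 4087 with the title series and 4933 with limma-voom. The interaction was called for 3235 genes in the main fit, 3425 with 8 added, 2852 without a filter, 3123 with the title series and 2332 with Ddx3y. Apart from the minimum of 50, whose fewer tested genes lower the counts, the cause of these changes was not tested.

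Leaving out 1 library gave 10 to 14 replication and 20 to 23 mitotic genes in KO microglia and 10 to 14 and 21 to 23 in KO macrophages, with gaps of -1.40 to -1.04 and -1.24 to -0.965. Of 20 and 24 genes, it gave 3 to 7 and 2 to 6 between the WT groups and 0 to 2 and 1 to 1 between the KO groups. In the interaction it gave 0 to 3 and 1 to 4. The 2 between the KO groups, and the 7 and 6 between the WT groups, came without KO macrophage replicate 1. Of all 12519 tested genes, 4621 to 6104 were called in KO microglia, 2992 to 4149 in KO macrophages and 4074 to 5815 between the WT groups. The most, 5815, also came without KO macrophage replicate 1. Between the KO groups 927 to 1552 were called, and in the interaction 2643 to 3486. The planned edgeR and DESeq2 alternatives were not run, and limma-voom was the one method applied to the recovered reads as counts. No paired analysis was possible because the labels give the libraries no replicate numbers that pair them, and the numbers used here follow the accession order. Calls that rest on under 20 reads in a group, such as Rrm2 and Ccne1 in WT microglia, are limited by depth.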
